A study of Homo sapiens with 6 samples.

Results

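The genes examined here are 33 glycolysis and lactate genes of RefSeq, taken from the 20033 protein-coding genes on 24 chromosomes of the human assembly hg38 (GRCh38). They were chosen by function: the enzymes of the 10 steps of glycolysis with their isozymes, the enzymes that set the level of fructose 2,6-bisphosphate (PFKFB1 to PFKFB4), the lactate dehydrogenases, the pyruvate dehydrogenase kinases and HIF1A. A gene was called open in a library where a deposited peak overlapped the 1 kb to either side of a gene end, which is called a gene-end peak here. All 33 symbols were found in the table. A gene-end peak marks accessible chromatin near an end of the gene, does not measure the gene's transcript, and its absence says only that no peak was listed in that window.

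Glycolysis splits glucose into pyruvate in the cytosol and yields ATP and NADH. Lactate dehydrogenase turns pyruvate into lactate and regenerates NAD+, while the pyruvate dehydrogenase kinases hold pyruvate back from the mitochondrion by inactivating pyruvate dehydrogenase. Activated and leukaemic T cells are known for a high flux from glucose to lactate, and HIF1A, the oxygen-regulated subunit of hypoxia-inducible factor 1, is a known activator of many of these genes. Most steps have several isozymes, each encoded by its own gene and used in different tissues.

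Open chromatin was mapped by ATAC-seq, in which a transposase cuts accessible DNA and adds sequencing adapters, in nuclei of Jurkat cells, an established line from a human T-cell leukaemia. The normal gravity group (NG) and the simulated microgravity group (SMG) had 3 libraries each, all from this 1 line grown in RPMI1640 medium with serum, with 50000 cells lysed for 3 min and a transposition of 30 min at 37 °C. In SMG, per the labels, it was the isolated nuclei that were turned in a random positioning machine at 30 degrees per second for 30 min, so a response of living cells was not measured. The labels give no separate cultures for the replicates, so a p-value here speaks only of how these particular libraries vary, and that variation may be technical.

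The peak lists held 37782 to 43713 peaks, and the genome-wide background recovered from the deposited values, a measure of depth, ran from a pileup of 1.17 fragments per base in NG 1, the shallowest library, to 1.77 in NG 2. Peaks in SMG 3 have the word normalized in their names, and the sources used here do not explain it. No peak of any library was identical to a peak of another. Of 10 genes that define T cells, such as CD3E and LCK, 10 were open at a gene end throughout the 6 libraries (46.6% of all protein-coding genes). Of the other markers, 0 of 5 B-cell, 0 of 5 myeloid and 0 of 3 erythroid genes had a gene-end peak in any library (39.7% of all had none). Within 1 kb of a listed transcript start, CD2 had a peak in 3 SMG and 0 NG libraries, as did 0.0884% of all genes with a listed start.

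In both groups most glycolysis genes were open at a gene end. Of the 33 genes, the NG libraries 1 to 3 listed 24, 25 and 25 with such a peak, and the SMG libraries 1 to 3 listed 24, 23 and 22. The groups met at 24 genes. Among all protein-coding genes the background was 50.7%, 55% and 54% in the NG libraries and 53.8%, 54.6% and 52.2% in the SMG libraries. The glycolysis genes stood at 74.7% ± 1.75 in NG and 69.7% ± 3.03 in SMG (SD, n = 3 each), and all genes at 53.2% ± 2.27 and 53.6% ± 1.24. The excess of the glycolysis genes over all genes was 22.1, 20.8 and 21.7 percentage points in NG and 18.9, 15.0 and 14.5 in SMG. Every SMG value of this excess lay under every NG value, with a difference of -5.39 percentage points, for which no test is given because the genes were chosen with results of these data known. At listed starts the groups overlapped, with an excess of 18.4, 14.3 and 18.1 in NG and 15.3, 11.4 and 7.56 in SMG. With only peaks of a score of at least 50 the direction turned: 21, 19 and 21 of the 33 genes had a gene-end peak in NG and 22, 22 and 22 in SMG.

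**Figure D1:**
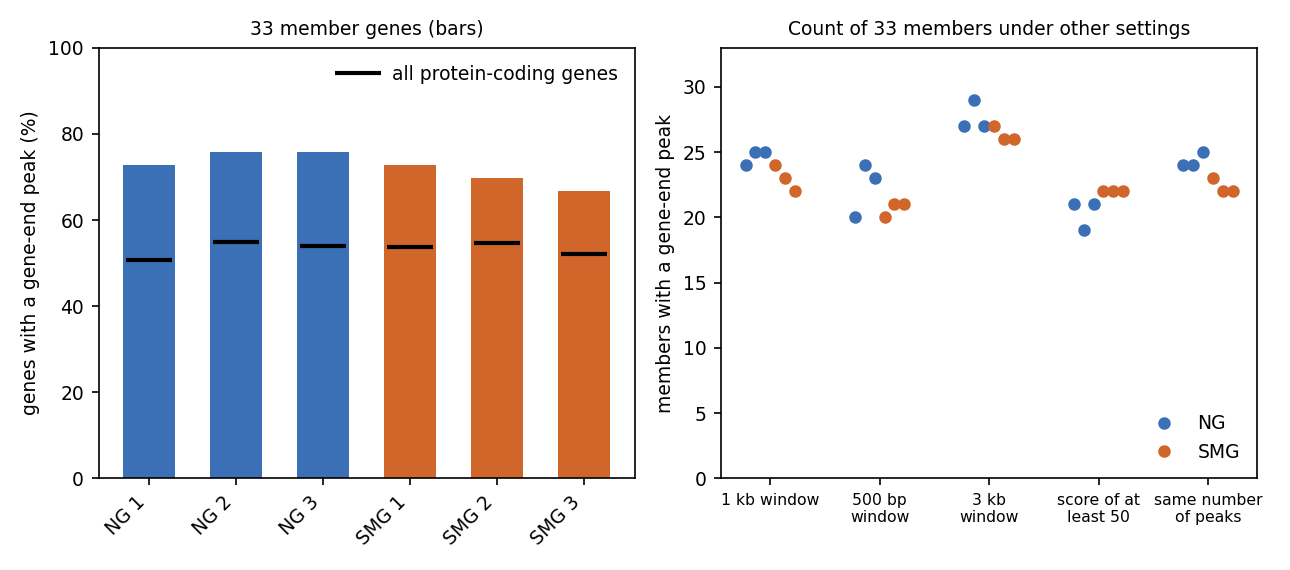
Left, the percentage of the 33 glycolysis and lactate genes with a gene-end peak in each of 6 libraries (bars; NG blue, SMG orange) and the percentage of all 20033 protein-coding genes (black lines); right, the number of the 33 genes with a gene-end peak per library (points) under other settings. All bars stand above their black lines, and the counts run from 24 to 25 in NG and 22 to 24 in SMG with the 1 kb window but from 19 to 21 in NG and stand at 22 in SMG for a score of at least 50.

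By gene, 20 of the 33 (60.6%) were open at a gene end in each of the 6 libraries, against 46.6% of all protein-coding genes. No gene-end peak was listed in any library for 7 of the 33 (21.2%, background 39.7%), namely HK1, PFKL, PFKFB2, PFKFB3, PFKFB4, LDHC and PDK4. The remaining 6 genes (18.2%, background 13.7%) had one in 1 to 5 libraries: HK3, PFKP, PFKFB1, TPI1, PGAM2 and ENO3. The 5 more gene-end peaks counted in NG than in SMG came from TPI1, ENO3, PFKP and PGAM2 alone. None of the 33 had a peak in all 3 libraries of one group and none of the other, a pattern shown by 20 genes in each direction among all 20033 (0.0998% for SMG alone and 0.0998% for NG alone). A single gene cannot pass 0.05 in this layout, since Fisher's exact test, two-sided, gives p = 0.1 for 3 libraries against 0. Without NG 1, TPI1 joined that pattern as the 1 such glycolysis gene.

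A table of RefSeq transcript starts, which is not complete and for GPI, PFKFB4, PGAM1, ENO3 and PKLR lists only starts over 1 kb inside the gene, so that a main promoter may be missing, listed starts for 32 of the 33 genes and for 15842 of all. PFKFB2 had no entry. Within 1 kb of a listed start, 19 of the 32 genes had a peak in all 6 libraries (59.4%, background 49.7%) and 7 in none (21.9%, background 37.7%), and 6 in 1 to 5 libraries (18.8%, background 12.6%). At starts, too, 0 of the 32 were open in one group alone (background 0.0884% for SMG alone and 0.0757% for NG alone). Counting a peak at either a gene end or a listed start, 23 of 33 were open in all 6 libraries (background 49.4%). Another 6 were open in 1 to 5 libraries (18.2%, background 14%). On that count PFKL, PFKFB2, LDHC and PDK4 were the 4 without any peak (background 36.6%).

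The sequences shown are the 150 bases just before a listed start for 7 genes with contrasting peaks, from RefSeq on hg38 (GRCh38), 5′ to 3′ on the gene's strand. PGK1, ENO1, LDHA, LDHB and PFKFB4 had a peak over the start in all 6 libraries, TPI1 in 2, and PFKL in 0. Capitals mark ACGTG and GCGTG, the cores bound by hypoxia-inducible factors, and GGGCGG, the GC box bound by SP factors, read on either strand, so that a match on the other strand appears as its reverse complement.
PGK1, chrX:78104098-78104247, plus strand: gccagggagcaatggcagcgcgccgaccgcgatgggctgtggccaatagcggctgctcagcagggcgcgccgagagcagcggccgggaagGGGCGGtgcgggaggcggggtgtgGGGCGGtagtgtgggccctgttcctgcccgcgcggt
ENO1, chr1:8878687-8878836, minus strand: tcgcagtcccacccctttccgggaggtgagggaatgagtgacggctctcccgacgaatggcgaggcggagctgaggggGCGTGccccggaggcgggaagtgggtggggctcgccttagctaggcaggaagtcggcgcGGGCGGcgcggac
LDHA, chr11:18394413-18394562, plus strand: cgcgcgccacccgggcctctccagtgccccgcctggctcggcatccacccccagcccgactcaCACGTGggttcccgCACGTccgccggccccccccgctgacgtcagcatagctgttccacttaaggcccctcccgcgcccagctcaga
LDHB, chr12:21657843-21657992, minus strand: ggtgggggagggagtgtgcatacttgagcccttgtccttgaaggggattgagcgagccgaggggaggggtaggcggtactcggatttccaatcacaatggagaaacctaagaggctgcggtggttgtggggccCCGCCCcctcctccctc
PFKFB4, chr3:48556804-48556953, minus strand: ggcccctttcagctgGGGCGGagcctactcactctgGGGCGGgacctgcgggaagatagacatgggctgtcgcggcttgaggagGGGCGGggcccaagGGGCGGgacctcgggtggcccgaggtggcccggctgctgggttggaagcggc
TPI1, chr12:6867381-6867530, plus strand: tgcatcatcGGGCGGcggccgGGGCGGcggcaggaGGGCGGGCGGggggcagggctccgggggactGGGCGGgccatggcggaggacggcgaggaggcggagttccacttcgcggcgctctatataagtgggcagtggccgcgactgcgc
PFKL, chr21:44299903-44300052, plus strand: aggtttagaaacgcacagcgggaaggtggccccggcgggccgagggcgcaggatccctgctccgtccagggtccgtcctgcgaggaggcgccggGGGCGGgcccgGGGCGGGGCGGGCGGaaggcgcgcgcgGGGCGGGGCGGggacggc
In these windows PFKL held 6 GC boxes, TPI1 5 and PFKFB4 4, while PGK1 held 2, ENO1 1, LDHB 1 and LDHA 0. LDHA held 3 matches of ACGTG, counting both strands. They lay at 2 marked sites, since CACGTG reads the same on either strand and was counted on each. The count of GC boxes thus did not rank these 7 starts by their peaks, and a match of letters is a description, not a bound site.

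**Figure D2:**
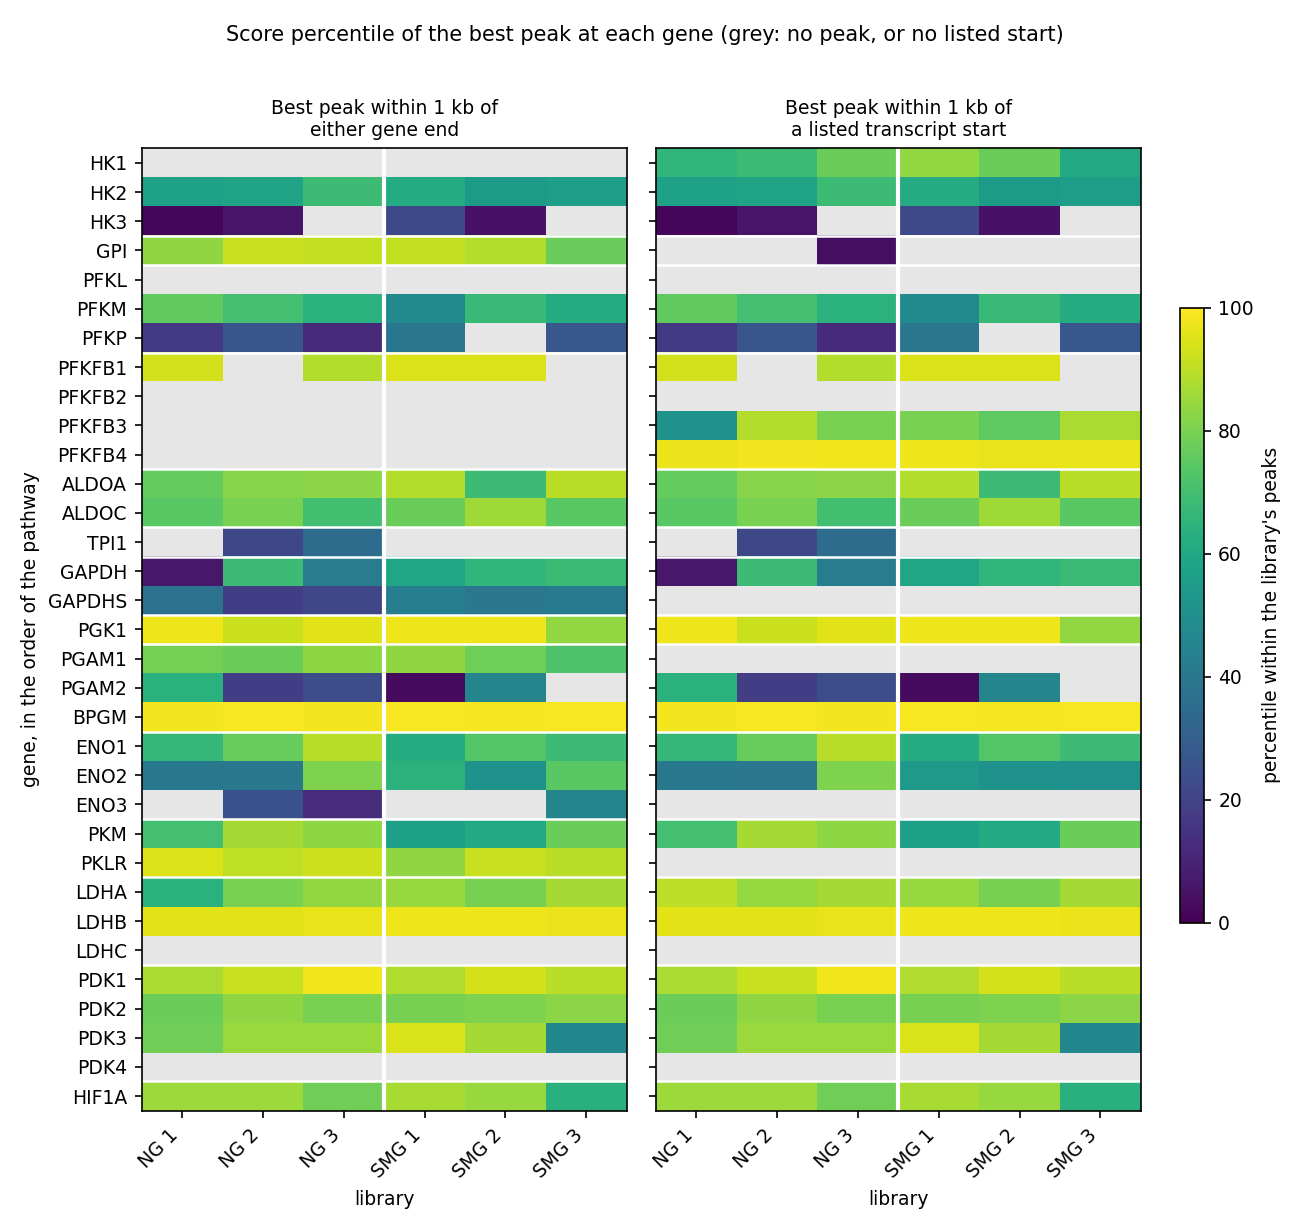
Score percentile of the best peak of each gene (rows, in pathway order) in each library (columns), within 1 kb of a gene end (left) and of a listed start (right), from 0 (dark) to 100 (bright), with grey where no peak or no start is listed. BPGM, LDHB and PGK1 are bright in every library on the left, and HK1, PFKFB3 and PFKFB4 are grey on the left and coloured on the right.

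To set genes side by side across libraries of unequal depth, each gene's best peak was ranked by −log10 q-value among all peaks of its own library, and this score percentile runs from near 0 for the weakest peak to near 100 for the strongest. Hexokinases trap glucose in the cell by phosphorylating it. HK1, the widely expressed form, had no peak at its gene ends but had one around the fifth and sixth of its 7 listed starts (chr10:69318181 and chr10:69319064, 48181 and 49064 bp inside the gene). Its percentile there was 65.6, 68.2 and 77.4 in NG and 83.8, 77.5 and 60.5 in SMG. No library had a peak over the 300-base promoter of the other 5 HK1 starts. HK2, the inducible form, stood at 57.1, 58.5 and 68.7 in NG and 61.4, 54.4 and 55.9 in SMG. HK3, a form of myeloid cells, had only weak peaks, at 1.93 and 5.66 in NG 1 and NG 2 and at 22.2 and 5.04 in SMG 1 and SMG 2. For each of the 3 hexokinases the ranges of the groups overlapped, as did the libraries with and without a peak at HK3.

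GPI, which converts glucose 6-phosphate to fructose 6-phosphate, stood at 83.2, 91.8 and 90.7 in NG and 90.8, 88.6 and 77.3 in SMG at its 5′ end. Its groups overlapped. The phosphofructokinases carry out the committed step. PFKM, the muscle form, stood at 75.4, 70.05 and 64.01 in NG and 47.8, 67.4 and 61.6 in SMG, and its peak summit lay 40 bp from the start of the neighbouring SENP1. PFKP, the platelet form, had weak peaks at 17.0, 26.2 and 11.9 in NG and at 39.3 and 27.3 in SMG 1 and SMG 3, with none in SMG 2. PFKL, the liver form, had none in any library, at its start on chr21:44300053 or elsewhere in the gene. Of the 3 phosphofructokinases, PFKM thus led PFKP in each of the 5 libraries where both had a peak.

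The PFKFB enzymes make and break fructose 2,6-bisphosphate, the activator of phosphofructokinase. PFKFB4 had no peak at its gene ends, yet at its listed start (chr3:48556803, 6333 bp inside the gene) it stood at 97.1, 98.4 and 97.8 in NG and 97.4, 96.9 and 96.4 in SMG, among the strongest peaks of each library. PFKFB3, the form with the highest kinase activity, was likewise open only at an inner start (chr10:6202932, 58011 bp inside), at 51.2, 88.4 and 80.1 in NG and 79.8, 75.3 and 87.5 in SMG. Groups overlapped for both genes. Among the 6 glycolysis genes with a listed start and no gene-end peak, HK1, PFKFB3 and PFKFB4 were open at such a start in all 6 libraries, that is 3 of 6, against a background of 6.55% (388 of 5924 genes). PFKFB1, the liver and muscle form, was called open in 4 libraries, at 93.1 and 88.6 in NG 1 and NG 3 and 94.8 and 94.9 in SMG 1 and SMG 2. That peak was present in all 6 libraries: its edge lay 1046 bp from the PFKFB1 end in NG 2 and 1010 bp in SMG 3, just outside the window, at percentiles of 94.0 and 95.2. Its summit lay 70 bp from the start of APEX2, the neighbour on the other side. PFKFB2 had 1 to 5 peaks inside the gene in each library and none at its ends.

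Aldolase splits fructose 1,6-bisphosphate. ALDOA, the muscle and general form, stood at 76.2, 81.8 and 82.8 in NG and 88.3, 68.7 and 89.8 in SMG, and ALDOC, the brain form, between 69.8 and 85.6 over the 6 libraries. The groups overlapped for both. Triosephosphate isomerase, encoded by TPI1 alone, interconverts the 2 products. TPI1 was the glycolysis gene with the most uneven calls: it had a peak at its start (chr12:6867531) at 21.7 in NG 2 and 35.4 in NG 3 and none in NG 1 or in any SMG library. It was the 1 glycolysis gene with at least 2 more NG than SMG libraries, a pattern shown by 0.784% of all genes, while 0.948% showed the reverse and 0 of the 33 did. The 2 TPI1 peaks were low, with summits of 22 and 21 fragments over local backgrounds of 5.96 and 4.58. In all 6 libraries a stronger peak lay 2112 to 2308 bp beyond an end of TPI1, at 82.7 to 88.7, which the 1 kb window does not reach.

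Glyceraldehyde-3-phosphate dehydrogenase makes the NADH that lactate dehydrogenase later consumes. GAPDH, the general form, stood at 6.32, 68.4 and 42.5 in NG and 59.0, 65.9 and 68.2 in SMG. NG 1 was far under the other 5, and NG 2 lay above every SMG library, so the groups overlapped. The best GAPDH peak of NG 1 lay at chr12:6535056-6535291, while those of the other libraries lay between 6533919 and 6534899. Only NG 1 had a peak over the 300-base promoter of the listed GAPDH start, with its summit 74 bp from that start. In the other libraries the summit lay 892 to 1162 bp upstream of it. That start lies 747 bp inside the gene, however. From the annotated 5′ end of GAPDH the summit lay 145 to 415 bp away in the other libraries and 673 bp away in NG 1. Over all 6 libraries the summit lay a median of 50 bp from an end of the long noncoding GAPDH-DT. NG 1 was also the shallowest library, and the part of depth in its value was not tested. GAPDHS, the sperm form, stood at 37.7, 18.4 and 21.2 in NG and 42.9, 39.8 and 40.8 in SMG. Its peak lay at the 3′ end of the gene, 12147 bp from its own start and 23 bp from the start of TMEM147, and no library had a peak at the GAPDHS start.

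Phosphoglycerate kinase, which makes the first ATP of the payoff phase, is encoded by PGK1, at 97.4, 92.1 and 95.5 in NG and 97.4, 97.6 and 83.9 in SMG. SMG 3 was the lowest and SMG 2 the highest, so the groups overlapped. Of the mutases, BPGM, which makes 2,3-bisphosphoglycerate, had the highest mean percentile of the 20 genes open at a gene end in every library, at 98.3, 98.9 and 98.1 in NG and 98.9, 98.7 and 98.9 in SMG. PGAM1, the general glycolytic form, stood between 71.9 and 83.5, with a summit 32 to 112 bp from its annotated 5′ end and a median of 178 bp from the start of the long noncoding LOC644215. Its only listed start lies 1627 bp inside the gene. PGAM2, the muscle form, ranged from 64.02, 18.1 and 23.7 in NG to 2.82 and 45.7 in SMG 1 and SMG 2, with no peak in SMG 3. Libraries of both groups thus took high and low places at PGAM2.

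Enolase makes phosphoenolpyruvate. ENO1, the general form, stood at 66.4, 76.8 and 89.3 in NG and 62.1, 73.2 and 68.7 in SMG. ENO2, the neuronal form, stood between 40.1 and 80.5, and in 3 of the 6 libraries its best peak lay at the 3′ end of the gene. ENO3, the muscle form, had peaks at 25.3 and 12.8 in NG 2 and NG 3 and 45.5 in SMG 3, near the start of PFN1 (a median of 39 bp from the summit) and none at a listed ENO3 start. Pyruvate kinase makes pyruvate and ATP. PKM, the form of most tissues outside liver, stood at 70.1, 86.5 and 82.9 in NG and 56.4, 61.3 and 77.4 in SMG, and the groups overlapped between 70.1 and 77.4. PKLR, the liver and red-cell form, stood higher, at 94.6, 90.5 and 92.3 in NG and 83.4, 91.5 and 89.5 in SMG, at a peak whose summit lay 37 to 128 bp from the annotated 5′ end of PKLR and a median of 103 bp from the start of FDPS. The listed PKLR starts lie 7216 and 7702 bp inside the gene, and no peak was listed there. A gene-end peak with no peak at any listed start was also seen for GAPDHS and PGAM1, which makes 3 of 20 genes (15%, background 3.72%). For PKLR and PGAM1 the table may miss a start at the annotated 5′ end, where the peak lay.

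Lactate dehydrogenase closes the pathway. LDHA, whose subunit is tied to lactate production, stood at 63.9, 79.9 and 84.0 in NG and 84.6, 79.5 and 86.5 in SMG at its gene end (chr11:18394563). At either of its 2 listed starts the best peak stood at 89.997, 84.0 and 86.6 in NG and 84.6, 79.6 and 86.5 in SMG, so the low value of NG 1 at the gene end was not seen at the start 1788 bp inside. LDHB, the heart-type subunit, stood at 96.0, 95.5 and 96.5 in NG and 97.5, 97.5 and 96.9 in SMG. Every SMG library lay above every NG library at LDHB. LDHC, the testis form, had no peak within 1 kb and a weak one within 3 kb in all 6 libraries, at 14.3 to 37.8.

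Of the kinases that inactivate pyruvate dehydrogenase, PDK1 stood at 87.2, 91.8 and 97.9 in NG and 87.9, 93.7 and 89.8 in SMG. PDK2 lay between 77.6 and 83.3 in the 6 libraries. PDK3 was the most variable, at 78.4, 84.8 and 85.1 in NG and 94.2, 86.5 and 46.7 in SMG, with both the highest and the lowest value in SMG. PDK4, the starvation-induced form, had no peak. HIF1A itself stood at 85.5, 85.4 and 78.4 in NG and 86.9, 84.6 and 63.6 in SMG, lowest in SMG 3, with overlapping groups.

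Between NG and SMG no glycolysis gene passed the test of its percentile. Over the 9331 genes open in all 6 libraries, the exact permutation test over the 10 splits, two-sided, allows no p under 0.1, and the smallest Benjamini-Hochberg adjusted p was 0.913. Of the 20 glycolysis genes among them, 9 had a higher and 11 a lower mean in SMG, with a median difference of -1.85 percentile points against -0.35 over all 9331 genes. The groups did not overlap for 2 of the 20 (10%), against 11% of all genes, a share near the background. Both were higher in SMG (background 4.33%), and 0 were lower (background 6.62%). LDHB stood at 96.0 ± 0.524 in NG and 97.3 ± 0.315 in SMG (SD, n = 3 each), a difference of 1.29 (exact p = 0.1, adjusted p = 0.913). Ranked by fold enrichment its difference was 3.04 and its groups overlapped. GAPDHS stood at 25.8 ± 10.4 in NG and 41.2 ± 1.60 in SMG, a difference of 15.4 (exact p = 0.1, adjusted p = 0.913), at the peak it shares with the TMEM147 start. The 2 genes without overlap depended on the ranking: they were GAPDHS and PKM by fold enrichment, and BPGM and LDHB by summit pileup. At listed starts the groups did not overlap for 1 of 19 genes, LDHB (5.26%, background 11.3%), which was higher in SMG (background 4.36%, and 6.89% for lower). With 1 library left out, 20 or 21 glycolysis genes were tested. Those without overlap were 4 without NG 1 (20%, background 21.9%), 6 without NG 2 (30%, background 20.6%) and 4 without NG 3 (20%, background 19.4%). They were 3 without SMG 1 (15%, background 20.3%), 8 without SMG 2 (38.1%, background 21.7%) and 4 without SMG 3 (19.0%, background 22.2%). LDHB and GAPDHS were among them each time. That was fixed in advance, since leaving out a library cannot make separate groups overlap. Over all genes the count without overlap also went up, to 1825 at the least from 1022, since fewer libraries overlap less often.

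Isozymes of 1 step were compared within each library, for the 9 pairs with a gene-end peak in all 6 libraries. LDHB exceeded LDHA in 6 of 6 libraries, by 16.9 ± 7.88 percentile points (SD, n = 6; exact sign-flip permutation test, two-sided, p = 0.03125, adjusted p = 0.0703 over the 9 pairs). BPGM exceeded PGAM1 in all 6 by 19.8 ± 4.35, PDK1 exceeded PDK2 by 10.9 ± 4.14 and PKLR exceeded PKM by 17.9 ± 10.8, with the same exact p and adjusted p. The PKLR peak is the one near both its annotated 5′ end and the FDPS start. These p-values are the smallest that 6 libraries allow, and 0 of the 9 pairs passed an adjusted p of 0.05. ALDOA and ALDOC differed by 4.28 ± 11.8, less than the spread (exact p = 0.4375, adjusted p = 0.492). GAPDH exceeded GAPDHS in 5 of 6 libraries, the exception being NG 1, by 18.3 ± 26.9 (exact p = 0.1875, adjusted p = 0.241). That pair had its order set by the ranking: GAPDHS led in all 6 libraries by fold enrichment, and GAPDH led in all 6 by summit pileup. By summit pileup PKLR no longer led PKM in every library. Without SMG 3 the number of pairs with 1 direction in every library was 7 of 11 in place of 4 of 9, with PDK3 above PDK2 among those added.

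**Figure D3:**
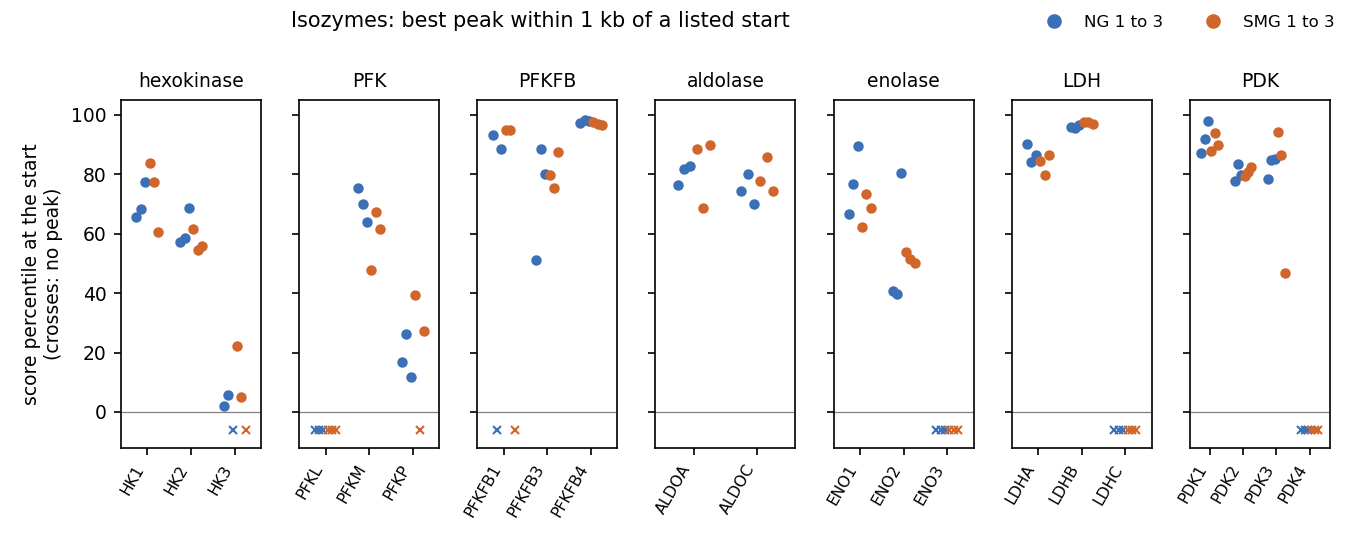
Score percentile of the best peak within 1 kb of a listed start for the isozymes of 7 families, 1 point per library (NG 1 to 3 blue, SMG 1 to 3 orange), with crosses under the zero line for libraries with no peak. LDHB lies above LDHA, PFKFB4 above PFKFB3 and HK1 above HK2 when read library by library, and PFKL, ENO3, LDHC and PDK4 show crosses only.

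At listed starts 8 pairs could be compared. HK1 exceeded HK2 in 6 of 6 libraries by 12.8 ± 7.85, PFKFB4 exceeded PFKFB3 by 20.3 ± 13.4, ENO1 exceeded ENO2 by 20.04 ± 10.9, LDHB exceeded LDHA by 11.4 ± 3.91, and PDK1 exceeded PDK2 by 10.9 ± 4.14 (SD, n = 6; exact sign-flip permutation test, two-sided, p = 0.03125 each, adjusted p = 0.05, which is at and not under the threshold). LDHB over LDHA and PDK1 over PDK2 were thus seen in all 6 libraries both at gene ends and at starts. These windows are not separate readings, since the best peaks of LDHB, PDK1 and PDK2 were the same in both. LDHA had another best peak at starts only in NG 1, NG 2, NG 3 and SMG 2. The balance of isozymes was then compared between the groups. In the exact permutation test over 10 splits, two-sided, the smallest p was 0.2 (adjusted p = 0.9 at gene ends and 0.96 at starts), so no shift of isozymes between NG and SMG passed. LDHB led LDHA at gene ends by 20.1 ± 10.5 in NG and 13.8 ± 3.85 in SMG (exact p = 0.6). At listed starts the direction was the reverse, with a lead of 9.13 ± 2.82 in NG and 13.7 ± 3.79 in SMG (exact p = 0.2). ENO1 led ENO2 at gene ends by 23.7 ± 14.1 in NG and 4.56 ± 15.1 in SMG (exact p = 0.2). Without the 3′ peaks of ENO2, at listed starts, it led by 23.9 ± 14.3 in NG and 16.2 ± 7.12 in SMG (exact p = 0.4).

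A q-value reflects both the height of a summit and the local background that the peak caller set it against. Both were expressed as multiples of the genome-wide background of the library. Over the 20 genes the median height was 26.4 and the median local background 3.14, against 26.0 and 2.71 over all 9331 genes. GAPDH had a summit of usual height, 27.9 (percentile 54.4 of all genes), on a local background of 7.42 (percentile 98.6), and its mean score percentile stood at only the 12.0 percentile of genes. These GAPDH means pool the NG 1 peak at the listed start with the peaks upstream of it in the other libraries. GAPDH was the 1 of the 20 above the top 5% of local backgrounds, 5.90, and its local background was 7.10 to 7.98 in each of the 6 libraries. LDHA followed at 5.46, LDHB at 4.75, PKM at 4.75, BPGM at 4.35 and ALDOA at 4.28, which with GAPDH makes 6 of 20 above the upper quartile of all genes, 3.74. BPGM and LDHB had the tallest summits, 64.2 and 55.6.

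**Figure D4:**
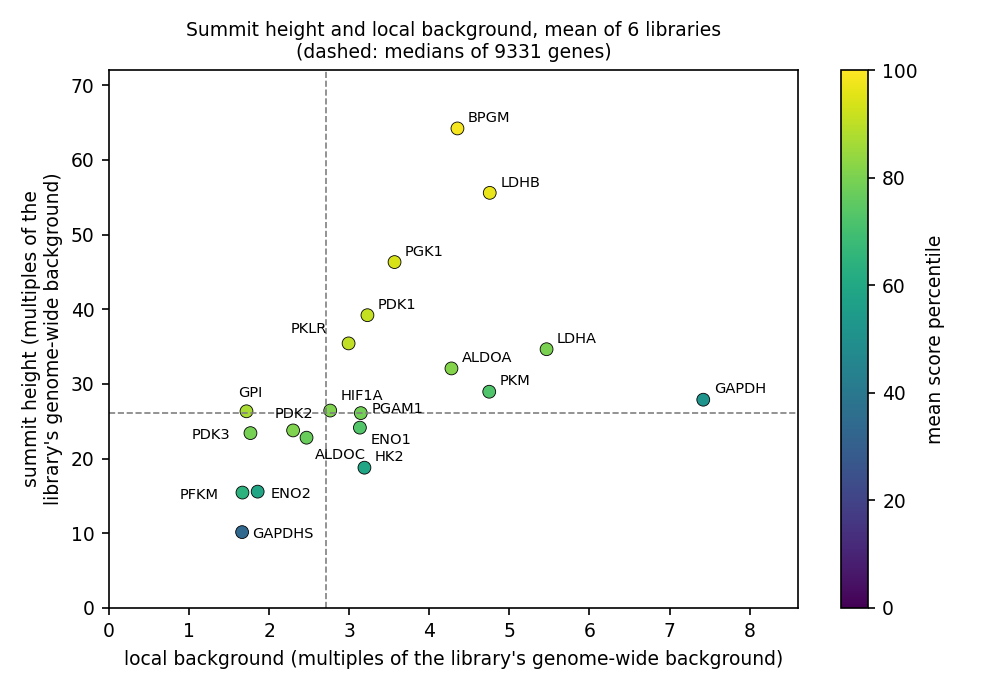
Summit height against local background, both as multiples of the library's genome-wide background and averaged over 6 libraries, for the 20 glycolysis genes with a gene-end peak in all 6, coloured by mean score percentile. Dashed lines mark the medians of 9331 genes, 2.71 and 26.0; GAPDH lies far right at 7.42 with a height of 27.9, and BPGM and LDHB lie highest.

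The 32 genes had 60 listed promoters of 300 bases, from 250 before to 50 after a start, several of which overlap within a gene. A peak covered 25 of the 60 (41.7%) in all 6 libraries and 23 (38.3%) in none, against 38.3% and 49.2% of the 22198 promoters of protein-coding genes. The GC content of the 25 had a median of 70.7% and that of the 23 a median of 53.3%, against 65% and 57% over all promoters. The relation was not one-way. Among all promoters the share with a peak in all 6 libraries was 3.19% under a GC content of 40%, 54.8% from 60 to 70%, 53.3% from 70 to 75%, 33.1% from 75 to 80% and 7.79% above 80%. Among the glycolysis promoters it was 12 of 15 from 70 to 75% and 2 of 6 from 75 to 80%. PFKL and the outermost PFKFB3 start, both at 78.3%, and the third PFKP start, at 79.7%, had no peak, while the second PDK1 start, at 77.0%, had one in all 6. The first PDK1 start was the exception at the other side, with a peak in all 6 libraries at a GC content of 36.3%. These bins were chosen after the values were seen.

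**Figure D5:**
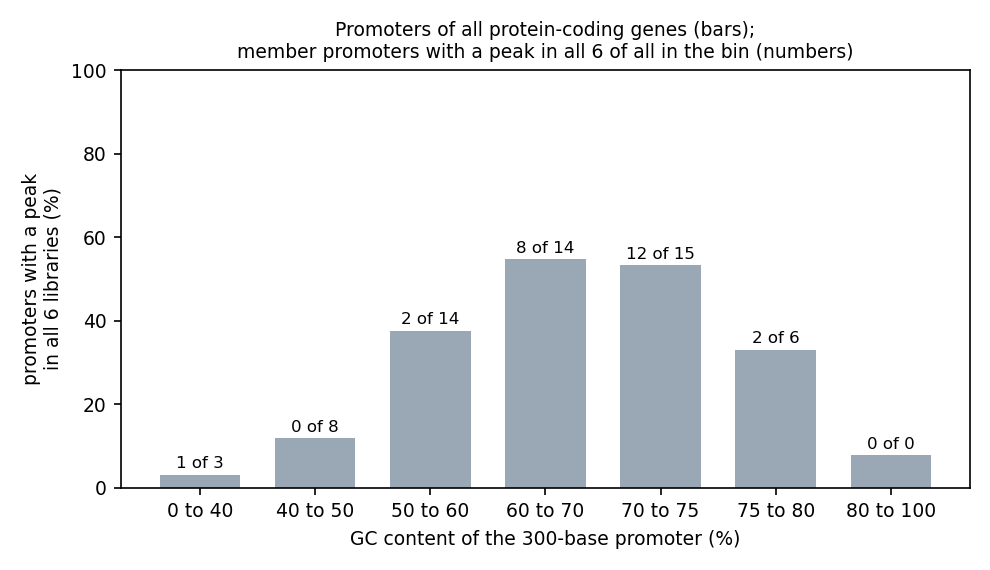
Share of promoters with a peak in all 6 libraries (bars, %) by GC content of the 300-base promoter, for 22198 promoters of protein-coding genes, with the number of glycolysis promoters with a peak in all 6 and in the bin printed above each bar. The share is highest, 54.8% and 53.3%, from 60 to 75% and lower on both sides, 33.1% from 75 to 80%.

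Short motifs were counted in these promoters on both strands. ACGTG was present in 36.7% of the 60 glycolysis promoters and 23.05% of all, GCGTG in 38.3% and 43.0%, and either of the pair in 60% and 54.7%. CACGTG, the E box bound by MYC, which always holds an ACGTG, was present in 13.3% and 8.34%. GGGCGG was present in 60% and 56.3%, and in promoters with a peak in all 6 libraries in 88% and 73.0%. TATAAA, the TATA box, was present in 8.33% and 9.47%, and CCAAT in 35% and 34.7%. Starts of 1 gene share sequence, so these shares are descriptions without a test.

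Peaks inside the 33 genes were also counted, outside the windows at gene ends and at listed starts. Peaks at an inner listed start, as for LDHA and PFKFB4, are thus left out. There were 20, 26 and 21 such peaks in NG and 22, 24 and 23 in SMG, with overlapping groups. HK1 held 6 or 7 in each library, HK2 3 or 4, PFKFB3 2 to 5 and PFKFB2 1 to 5, and 20 genes held none outside these windows in any library.

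Lists of related genes, written by function, were set beside these genes at their gene ends. The background is again all protein-coding genes, with 46.6% open in all 6 libraries, 39.7% in none and 13.7% in 1 to 5. In each of the 6 libraries a peak was present for 7 of 9 genes of the pentose phosphate pathway, which branches from glucose 6-phosphate, with TKTL1 and TKTL2 at none. For the tricarboxylic acid cycle it was 19 of 20, with IDH2 at none. For pyruvate dehydrogenase and pyruvate entry it was 9 of 10, the exception being PDHA2, the testis form, with a peak of percentile 10.0 in NG 2 alone. Among 8 carriers of glucose and lactate, SLC2A1, SLC2A4, SLC16A1, SLC16A7 and BSG were open in all 6, and SLC2A3, SLC16A3 and SLC16A8 in none. Of gluconeogenesis, the reverse route used by liver and kidney, 3 of 8 were open in all 6 (G6PC3, PCK2 and PC), FBP1 in NG 2 alone at 9.01, and G6PC1, G6PC2, FBP2 and PCK1 in none. Of 9 genes of oxygen sensing, 5 were open in all 6 (ARNT, VHL, EGLN1, EGLN2 and HIF1AN), HIF3A, ARNT2 and EGLN3 in none, and EPAS1, which encodes the HIF-2 alpha subunit, in NG 2 at 16.4 and SMG 1 at 23.3. Of these 6 lists, the carriers, gluconeogenesis and oxygen sensing lay nearest to the background. No gene of the 6 lists was open in all libraries of one group and none of the other (background 0.0998% in each direction). Among markers of liver and muscle, where PKLR, ENO3 and PGAM2 are used, APOA1 was open in all 6, CKM in 3 at 24.2, 7.79 and 22.9, and ALB and MYH2 in none.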

How the data were processed

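The submitters' processing notes name FastQC, BWA, Bowtie, SAMtools, MACS2 and the build hg38. Versions, settings, duplicate handling and any transposase shift were not given in these sources. What the authors deposited is a peak list for each library, called in each library separately, with 10 columns: an integer score (10 times the −log10 q-value), a fold enrichment (a linear ratio of summit to local background), and −log10 p-values and q-values (largest q 0.0474 to 0.0496). No read counts are in these lists. Summit pileup and local background were recovered from the deposited fold and −log10 p-value with MACS2's Poisson formula, within 0.001 for 99.9471 to 99.9606% of peaks.

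Gene ends and starts came from RefSeq (GRCh38). A peak counted with an overlap of at least 1 bp. Tests were the exact permutation test over 10 splits of 6 libraries, the exact sign-flip test over libraries (64 flips) and Benjamini-Hochberg adjustment over all genes tested or over the isozyme pairs. Scripts were tested on simulated data and used Python 3.11.15, pandas 2.3.3, NumPy 2.4.6, SciPy 1.17.1 and matplotlib 3.10.9.

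The genes, lists and tests were chosen with earlier results of these data known. A further list of related genes is not reported here. All 33 genes are accounted for. Values per library are given for genes open in 1 to 5 libraries and for the leading gene of each enzyme family. They are also given for genes whose groups do not overlap, HIF1A, and further isozymes chosen after their values were seen. Alternatives were other windows, stricter scores, equal numbers of peaks, larger overlap, ranking by fold or, chosen after seeing the data, by summit pileup, each library left out, and a replicate block.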

Additional observations from a re-analysis of the deposited data

How the results depend on the processing

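The share of glycolysis genes with a gene-end peak differed by -5.05 percentage points between SMG and NG, and their excess over all genes by -5.39. Both turned positive, 5.05 and 4.40, with peaks of a score of at least 50, and both kept their direction under the other windows, equal numbers of peaks and a larger overlap. Leaving out 1 library gave -6.57 to -3.54 and -6.78 to -4.54. Genes without overlap between groups were 1022 of all 9331 (11%) and 2 of 20 glycolysis genes (10%). With a 3 kb window they were 4 of 24 glycolysis genes (16.7%, background 11.0%). At listed starts they were 1 of 19 (5.26%, background 11.3%), and with a minimum score of 50 they were 1 of 18 (5.56%, background 11.1%). With a library left out they numbered 1825 to 2116 of all (19.4% to 22.2%) and 3 to 8 glycolysis genes (15% to 38.1%). Genes open in one group alone (20 and 20) numbered 12 for NG at listed starts, 32 for SMG with any peak in the gene, and 33 to 70 and 26 to 71 with a library left out, with 0 to 1 glycolysis genes, TPI1 without NG 1. Isozyme pairs with 1 direction (4 of 9) numbered 8 of 12 with a 3 kb window, 7 of 14 with any peak in the gene and 4 to 7 with a library left out; the cause of these changes was not tested beyond the smaller number of libraries or the other genes tested. Ranked by summit pileup, chosen after seeing the data, the LDHB difference was 0.829. Both other rankings kept the count of 2 genes without overlap but changed 1 of them, LDHB to PKM by fold enrichment and GAPDHS to BPGM by summit pileup. The TPI1 difference in libraries with a peak went to 0 with a 3 kb window, which takes in another peak.

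No pairing by the replicate numbers of the labels was seen in the values. Deviations of same-numbered libraries correlated at -0.02, 0.03 and -0.08, and those of different-numbered libraries at -0.08 to 0.08. With 3 libraries per group, these correlations cannot decide whether same-numbered libraries were prepared together. With a replicate block the difference of the glycolysis genes was -5.05 and their excess -5.39, as without it. In all 3 pairs, 6 of 20 glycolysis genes (30%) had 1 direction, against 2392 of all 9331 genes (25.6%). The smallest exact sign-flip p there is 0.25.

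Depth is known only through the recovered background, and a peak under a summit pileup of 6 to 8 was in no list, so a missing weak peak is not evidence of closed chromatin.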
